A study of Homo sapiens and Mus musculus with 24 samples.

Results

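Parental MCF10A cells treated with the PI3K alpha inhibitor BYL719 (alpelisib) were compared with parental MCF10A cells given its solvent, DMSO. MCF10A is an immortalised, non-tumorigenic line of human breast epithelium, and the parental line is labelled wild type for PIK3CA. The members of the comparison were chosen by their labels and number 6 of the 24 libraries of the series: 3 libraries of parental cells treated with BYL719 at a dose of 1 uM, and 3 libraries of parental cells given DMSO, both for 4 h. The series also holds 6 libraries of an MCF10A line with a heterozygous PIK3CA H1047R knock-in given BYL719 or DMSO in the same way, which are used below for a test of the difference between lines, and 12 libraries of mouse embryonic fibroblasts, which were not analysed here. The parental and knock-in lines were bought as an isogenic pair, so each genotype is 1 line. The labels do not say whether the 3 libraries of a group came from separate cultures, so the p-values measure the spread between these libraries, which may be technical. For the medium, the RNA selection and the strandedness of the libraries nothing was given in the sources used here.

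PI3K alpha is activated by receptor tyrosine kinases and their adaptors and makes the membrane lipid PIP3, which recruits and activates the kinase AKT. AKT phosphorylates the FOXO transcription factors and keeps them out of the nucleus, so that genes induced by FOXO, among them several receptors and adaptors that feed back on PI3K, are restrained while the pathway is active. AKT and the mTOR complexes also promote cholesterol and fatty acid synthesis through the SREBP factors and growth of the ribosome pool through MYC and RNA polymerase I, while the RAS and ERK branch runs beside PI3K and induces D cyclins, AP-1 factors and its own inhibitors. In breast epithelium the same pathway links insulin, EGF and related factors to growth and survival, and p110 alpha, the product of PIK3CA, is a frequent target of activating mutations in breast cancer.

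The 6 libraries held 120177015 to 162755457 estimated read pairs, and between 7.83% and 8.58% of the pairs of a library fell on its 20 most abundant genes. Mitochondrially encoded transcripts took 2.25% to 2.65% of the BYL719 libraries and 2.56% to 2.69% of the DMSO libraries, and 0 of 12 such genes were called. No library was a copy of another, since pairs of replicates differed with a chi-square per degree of freedom of 4.59 to 50.6 within BYL719 and 12.1 to 52.0 within DMSO, and replicate 3 was the most distant in both groups. The basal mammary keratin KRT5 averaged 3718 ± 111 CPM with BYL719 and 3982 ± 57.6 CPM with DMSO (mean ± SD, n = 3 libraries), whereas the oestrogen receptor gene ESR1 averaged 3.7 ± 0.0455 CPM with BYL719 and 4.42 ± 0.177 CPM with DMSO, and the luminal genes PGR, TFF1, SPDEF, ELF5 and KIT did not pass the filter on low counts. Of 14 luminal markers, 9 passed that filter, ESR1 among them, and 1 of these rose and 2 fell. The 14 together summed to 685 to 732 CPM with BYL719 and 735 to 749 CPM with DMSO. Of 15 basal markers, 6 rose and 3 fell, and of 15 epithelial markers, 4 rose and 3 fell, where 8.32% of all genes tested rose and 9.0% fell. Some markers of other cells were near 0 or at 0: PTPRC, CD3E and HBB for blood, CDH5 and CLDN5 for endothelium, ADIPOQ, LEP and FABP4 for fat, and SNAP25 for neural cells did not pass the filter. Other markers passed it: 4 of 8 for blood, 5 of 7 for endothelium, 3 of 6 for fat and 5 of 7 for neural and glial cells. Blood markers summed to 19.5 to 20.3 CPM with BYL719 and 20.1 to 20.4 CPM with DMSO. Neural and glial markers summed to 321 to 345 and 359 to 383 CPM, and the 19 mesenchymal markers to 1019 to 1070 and 934 to 982 CPM. Levels are given as CPM, the estimated read pairs scaled to the TMM library size, for replicates 1, 2 and 3 in that order.

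PIK3CA itself, the gene of the inhibited enzyme (GRCh38 chromosome 3, 179148114 to 179240093), had 66.6, 68 and 72 CPM in the BYL719 libraries, against 55.7, 59.2 and 59 CPM in the DMSO libraries. All 3 BYL719 libraries lay above all 3 DMSO libraries. The rise was 1.19-fold (log2 fold change 0.25, SE 0.0323, adjusted p = 1.66e-05). In these bulk samples, fewer cells of a type and less RNA per cell cannot be told apart, for this gene and for all those below. Over the transcriptome, 20114 genes were tested and 17.3% were called, meaning a Benjamini-Hochberg adjusted p under 0.05: 1673 rose (8.32%) and 1811 fell (9.0%). Most changes were small, with a median absolute log2 fold change of 0.16 among called genes, 141 genes higher and 55 lower by at least 1.5-fold, and 44 higher and 10 lower by at least 2-fold. These counts include low genes, since 6335 of the genes tested averaged under 1 CPM. Most of the 2-fold changes were in genes under 1 CPM or with overlapping groups. Among the other called genes, 2-fold rises ran only from HAS2 to CLDN1, and only HIST2H4B and FOSL1 fell 2-fold. The median over all genes tested was 0.0025. The groups did not overlap in CPM for 6573 genes, 32.7% of those tested, and 3444 of these were called. The number of calls depended on which libraries estimated the spread: all 12 MCF10A libraries fitted together gave 178 genes higher and 124 lower, the 9 libraries without knock-in DMSO gave 871 and 905, and the 6 libraries without BYL719 replicate 3 gave 1188 and 1189. With offsets for effective transcript length, 901 genes were higher and 824 lower. PIK3CA lost its call with all 12 MCF10A libraries in the fit.

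**Figure D1:**
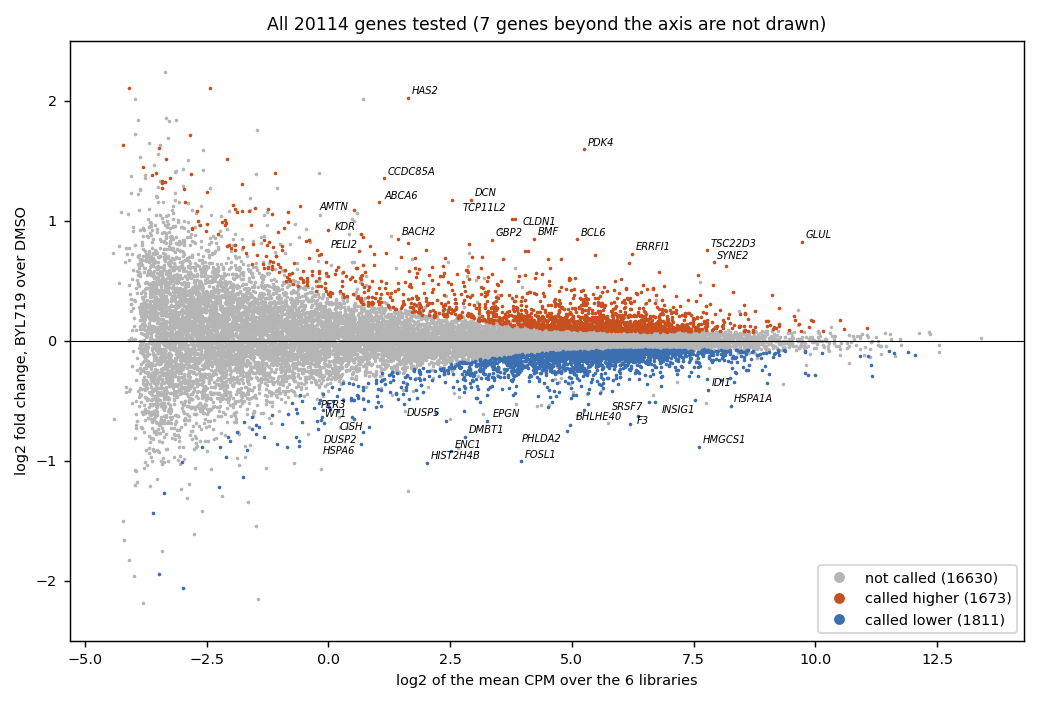
Log2 fold change of BYL719 over DMSO (vertical axis) against the log2 mean CPM over the 6 parental libraries (horizontal axis) for the 20114 genes tested, with 7 beyond the axis not drawn. Orange points were called higher (1673 genes), blue points called lower (1811) and grey points not called. HAS2 and PDK4 stand above, and FOSL1 and HMGCS1 below, at levels where most genes lie close to 0.

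The largest rises among genes averaging at least 1 CPM included genes of matrix, fuel use and membranes, beside genes of other functions. HAS2, which makes the matrix sugar hyaluronan, had 4.25, 5.62 and 5.14 CPM in the BYL719 libraries, against 1.1, 1.25 and 1.36 CPM in the DMSO libraries. Its groups were far apart, with every BYL719 library at more than 3 times the highest DMSO library (log2 fold change 2.02, SE 0.11, adjusted p = 1.10e-09). PDK4, a kinase that switches off pyruvate dehydrogenase and a well-known FOXO target (GRCh38 chromosome 7, 95583499 to 95596491), had 55.6, 55.8 and 60.8 CPM in the BYL719 libraries, against 16.6, 19.6 and 21 CPM in the DMSO libraries. Again no DMSO library came near a BYL719 library (log2 fold change 1.60, SE 0.102, adjusted p = 0.000881). CLDN1, a claudin of tight junctions (GRCh38 chromosome 3, 190305701 to 190322475), had 19.9, 18.3 and 19.2 CPM in the BYL719 libraries, against 8.71, 9.57 and 10.2 CPM in the DMSO libraries. The BYL719 values were close together and about 2-fold the DMSO values (log2 fold change 1.01, SE 0.0533, adjusted p = 3.66e-10). The matrix proteoglycan decorin, DCN, averaged 10.5 ± 0.435 CPM with BYL719 and 4.67 ± 0.642 CPM with DMSO (log2 fold change 1.17, SE 0.0853, adjusted p = 7.89e-07). Amelotin, AMTN, a secreted matrix protein best known from enamel, averaged 1.95 ± 0.286 CPM with BYL719 and 0.921 ± 0.121 CPM with DMSO (log2 fold change 1.09, SE 0.132, adjusted p = 4.50e-06).

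Further genes in this group were the ABC transporter ABCA6 (log2 fold change 1.15), the VEGF receptor KDR (0.89), the ubiquitin ligase PELI2 (0.86), the transcriptional repressor BACH2 (0.85) and the interferon-induced GTPase GBP2 (0.84). CCDC85A and TCP11L2 rose by 1.35 and 1.02 on the same scale. KDR is also an endothelial marker, and the summed level of the 7 endothelial markers, tested or not, was 2.76 to 2.95 CPM with BYL719 and 1.79 to 1.94 CPM with DMSO, with CDH5 listed at 0 in all 3 BYL719 libraries. DCN is also on the mesenchymal list, on which 4 of 16 genes rose, beside 8.32% of all genes. PELI2 lost its call with all 12 MCF10A libraries in the fit and BACH2 with offsets for effective transcript length.

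Genes with less replicate error rather than the largest fold gave the smallest p-values. GLUL, glutamine synthetase (GRCh38 chromosome 1, 182381704 to 182392206), had 1095, 1067 and 1080.0 CPM in the BYL719 libraries, against 588, 612 and 629 CPM in the DMSO libraries. The gap between the groups was far wider than the spread within each (log2 fold change 0.83, SE 0.0286, adjusted p = 6.34e-14). SYNE2, a nesprin that ties the nucleus to the cytoskeleton (GRCh38 chromosome 14, 63852983 to 64226433), had 296, 296 and 292 CPM in the BYL719 libraries, against 187, 186 and 189.6 CPM in the DMSO libraries. The 3 values within a group differed by only a few CPM (log2 fold change 0.65, SE 0.0248, adjusted p = 2.59e-13). ERRFI1, which encodes the EGFR inhibitor MIG6 (GRCh38 chromosome 1, 8004404 to 8026308), had 95.9, 93.3 and 92.7 CPM in the BYL719 libraries, against 58.7, 57.2 and 54.7 CPM in the DMSO libraries. BYL719 libraries again exceeded all DMSO libraries (log2 fold change 0.72, SE 0.028, adjusted p = 2.59e-13). TSC22D3, which encodes the glucocorticoid-induced leucine zipper protein GILZ, had 270.0, 276 and 282 CPM in the BYL719 libraries, against 156, 164 and 170.4 CPM in the DMSO libraries, and its groups did not overlap (log2 fold change 0.75, SE 0.0303, adjusted p = 9.68e-13). BCL6, a transcriptional repressor (GRCh38 chromosome 3, 187721377 to 187745727), had 43.8, 43.9 and 44.5 CPM in the BYL719 libraries, against 23.7, 24.4 and 25.6 CPM in the DMSO libraries, again without overlap (log2 fold change 0.84, SE 0.0328, adjusted p = 2.59e-13).

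The largest falls had fewer strong members. HMGCS1, the cytosolic HMG-CoA synthase of the mevalonate pathway (GRCh38 chromosome 5, 43289395 to 43313512), had 139, 138 and 136 CPM in the BYL719 libraries, against 254, 261 and 249 CPM in the DMSO libraries. Every BYL719 library was far below every DMSO library, and no gene that fell had a lower p (log2 fold change -0.88, SE 0.0261, adjusted p = 5.82e-15). FOSL1, which encodes the AP-1 subunit FRA1 (GRCh38 chromosome 11, 65892049 to 65900573), had 11.7, 10.5 and 8.87 CPM in the BYL719 libraries, against 23.6, 18.7 and 19.9 CPM in the DMSO libraries. The groups did not overlap, but values within each were scattered (log2 fold change -1.01, SE 0.15, adjusted p = 0.0169). The inducible chaperone gene HSPA6 averaged 1.13 ± 0.104 CPM with BYL719 and 2.04 ± 0.071 CPM with DMSO, with all BYL719 libraries lower (log2 fold change -0.86, SE 0.108, adjusted p = 7.45e-06). DMBT1, which encodes a secreted scavenger receptor protein, averaged 5.13 ± 0.469 CPM with BYL719 and 8.94 ± 0.398 CPM with DMSO (log2 fold change -0.80, SE 0.0675, adjusted p = 3.48e-08). Others were the actin-binding ENC1 (log2 fold change -0.92), the growth-restraining PHLDA2 (-0.76), the cytokine signalling inhibitor CISH (-0.72), the repressor BHLHE40 (-0.71), the clotting initiator tissue factor, F3 (-0.69), the phosphatase DUSP2 (-0.76), the transcription factor WT1 (-0.65) and the clock gene PER3 (-0.64). The splicing factor SRSF7 fell with little spread (log2 fold change -0.52, adjusted p = 3.18e-10). The histone gene HIST2H4B (-1.02) belongs to a family of near-identical copies, so its value is uncertain. PHLDA2, DUSP2, WT1, PER3 and HIST2H4B lost their calls with all 12 MCF10A libraries in the fit, FOSL1, PHLDA2 and DUSP2 with 9 of them, without knock-in DMSO, and WT1 with offsets for effective transcript length. FOSL1 was not called without BYL719 replicate 2 or DMSO replicate 3 (adjusted p = 0.0558 to 0.0799), nor was ENC1 without BYL719 replicate 2 (adjusted p = 0.0838), nor was BHLHE40 without BYL719 replicate 2 (adjusted p = 0.0637), nor was F3 without BYL719 replicate 2 or 3 or DMSO replicate 2 (adjusted p = 0.0683 to 0.0949), nor was HIST2H4B without BYL719 replicate 3 or DMSO replicate 1 (adjusted p = 0.0737 to 0.0789).

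**Figure D2:**
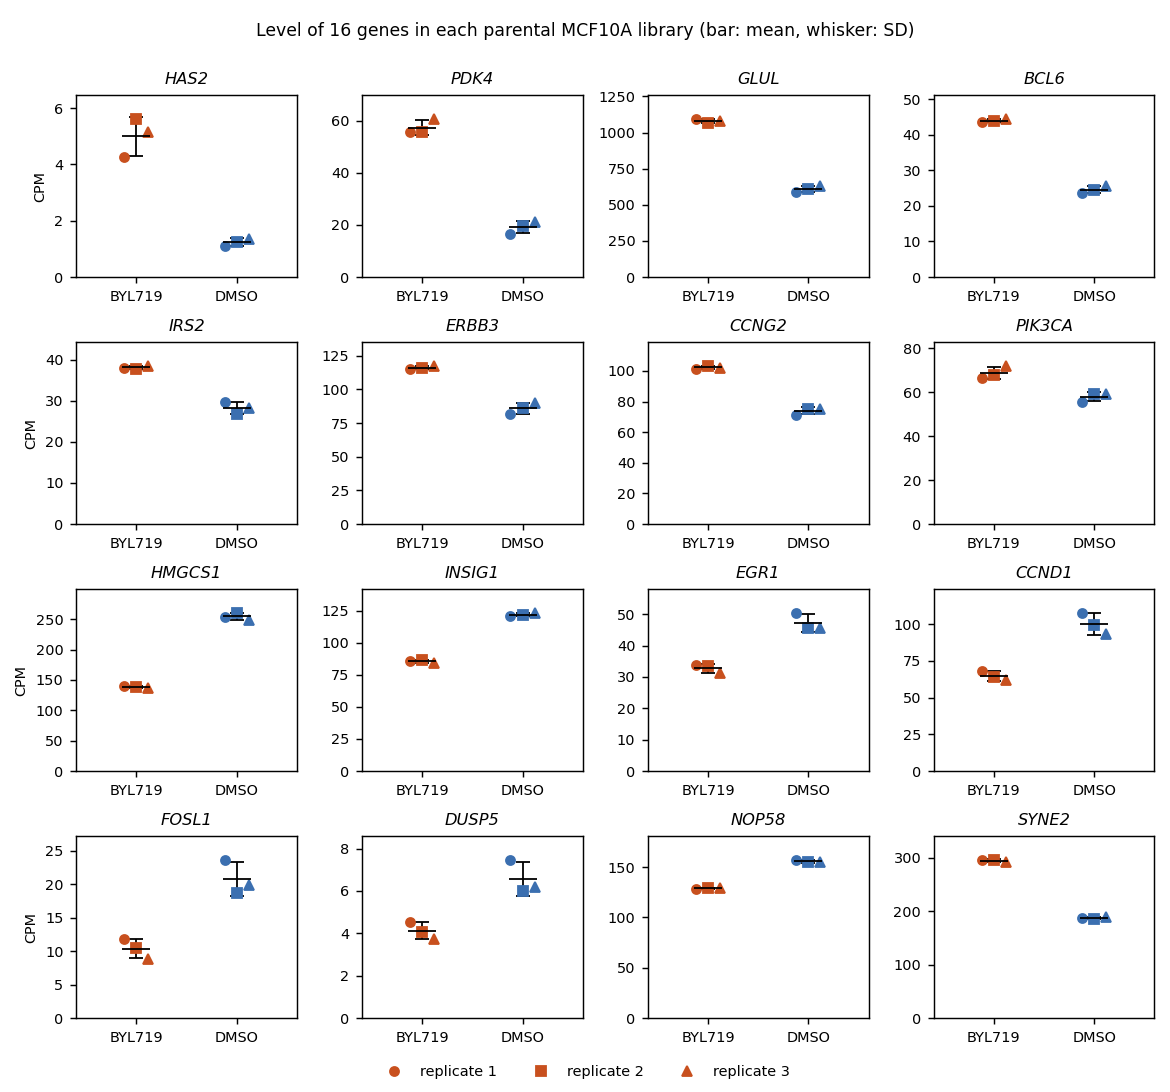
CPM in each of the 6 parental libraries for 16 genes, 1 panel a gene, with the 3 BYL719 libraries at the left of each panel, the 3 DMSO libraries at the right and a bar at each group mean with its SD as a whisker. Points of the 2 groups do not overlap in any of the 16 panels, and HAS2 and PDK4 show the widest gaps for their level.

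Most of the listed FOXO target genes rose. This list and those below were chosen with earlier results of these data known. Their counts therefore describe the members, and no list was tested as a set. Of 29 members tested, 25 rose and 0 fell, beside 8.32% and 9.0% of all genes, and their median log2 fold change was 0.32 beside 0.0025 over all genes tested. Their summed level was 3276 to 3319 CPM with BYL719 and 2279 to 2377 CPM with DMSO. Among the metabolic members 5 of 6 rose, led by PDK4 and GLUL, with smaller rises in GABARAPL1, a component of autophagosomes (0.34), in PINK1, a kinase that marks damaged mitochondria (0.17), and in catalase, CAT (0.10). The mitochondrial superoxide dismutase gene SOD2 did not pass the test (149 ± 9.98 CPM with BYL719 and 136 ± 5.8 CPM with DMSO, adjusted p = 0.163). With all 12 MCF10A libraries in the fit, 13 of the 29 members were called higher and 0 lower. PINK1 and CAT lost their calls with all 12 MCF10A libraries in the fit and CAT with 9 of them, without knock-in DMSO. CAT was not called without BYL719 replicate 1 (adjusted p = 0.114).

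Of the 9 signalling members of the FOXO list, 7 rose. IRS2, the adaptor of the insulin receptor (GRCh38 chromosome 13, 109752698 to 109786568), had 38, 37.8 and 38.5 CPM in the BYL719 libraries, against 29.7, 26.7 and 28.2 CPM in the DMSO libraries. The lowest BYL719 library was above the highest DMSO library (log2 fold change 0.43, SE 0.0353, adjusted p = 2.36e-08). ERBB3, the receptor that couples the EGFR family to PI3K (GRCh38 chromosome 12, 56076799 to 56103505), had 115, 116 and 118 CPM in the BYL719 libraries, against 82, 86.1 and 89.8 CPM in the DMSO libraries. BYL719 values were nearly equal and all above DMSO (log2 fold change 0.43, SE 0.0297, adjusted p = 2.63e-09). The insulin receptor gene INSR rose by 0.31, the mTORC2 subunit gene RICTOR by 0.32 and the sestrin gene SESN3 by 0.36 on the log2 scale. SESN1 and DEPP1, further known FOXO targets, did not pass the test, with log2 fold changes of 0.11 and 0.25 (adjusted p = 0.0663 and 0.159, or 0.0396 and 0.189 with a replicate block). INSR, RICTOR and SESN3 lost their calls with all 12 MCF10A libraries in the fit.

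Cell cycle and survival members of the FOXO list rose in 7 of 8 cases. CCNG2, an atypical cyclin of cells leaving the cycle (GRCh38 chromosome 4, 77157151 to 77433388), had 101, 103 and 102 CPM in the BYL719 libraries, against 71.5, 75.1 and 75.4 CPM in the DMSO libraries. The groups were well separated (log2 fold change 0.47, SE 0.0265, adjusted p = 1.35e-10). The CDK inhibitor gene CDKN1B rose by 0.21, the pocket protein gene RBL2 by 0.14, the BH3-only gene BCL2L11 by 0.26, the MYC antagonist gene MXI1 by 0.33 and the death ligand gene TNFSF10 by 0.57 on the log2 scale. GADD45A, a DNA damage gene that FOXO can induce, averaged 18.5 ± 0.427 CPM with BYL719 and 19.5 ± 0.879 CPM with DMSO and was not called (adjusted p = 0.194). CDKN1B, RBL2 and BCL2L11 lost their calls with all 12 MCF10A libraries in the fit.

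All 6 members of the FOXO list that act in transcription and turnover rose. TXNIP, the thioredoxin-interacting protein that restrains glucose uptake (GRCh38 chromosome 1, 145992435 to 145996600), had 372, 357 and 356 CPM in the BYL719 libraries, against 264, 272 and 283 CPM in the DMSO libraries. Each BYL719 library exceeded each DMSO library (log2 fold change 0.41, SE 0.0289, adjusted p = 3.50e-09). FBXO32, the ubiquitin ligase atrogin-1, had 20.6, 21.5 and 22.6 CPM in the BYL719 libraries, against 12.4, 12.6 and 13.6 CPM in the DMSO libraries, again with no overlap (log2 fold change 0.75, SE 0.0444, adjusted p = 3.94e-10). The FOXO factors' own genes FOXO1 and FOXO3 rose by 0.31 and 0.18, the CBP-binding regulator CITED2 by 0.50 and KLF6 by 0.18 on the log2 scale. FOXO4, counted among the pathway components, rose by 0.33. FOXO1, FOXO3 and KLF6 lost their calls with all 12 MCF10A libraries in the fit and KLF6 with 9 of them, without knock-in DMSO. KLF6 was not called without DMSO replicate 2 or 3 (adjusted p = 0.0647 to 0.0703).

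Promoter sequences are shown for 3 of the called FOXO targets because they hold the FOXO-binding letters GTAAACA close to the start site. The RefSeq table on GRCh38.p14 gave a window of 250 bases before to 50 after the start for 22 of the 25 called members, and both strands were searched. The letters GTAAACA were in 3 of these 22 windows, beside 3.41% of all 27305 promoters in the table, and the E-box CACGTG was in 3 of the 22 beside 7.43%. Among list members with a window, called or not, 4 of 25 hold GTAAACA and 3 of 25 hold CACGTG. Capitals mark the match, at -149 in PIK3CA, at -124 in TXNIP and at -223 in BCL2L11 from the RefSeq start site. For PIK3CA the GENCODE span given above begins upstream of that site, so its printed window lies within the span. In PIK3CA it lies on the other strand and so reads TGTTTAC. Each line gives 100 bases, 5′ to 3′ on the strand of the gene, from chr3:179148157-179148256 (plus strand) for PIK3CA, chr1:145996655-145996754 (minus strand) for TXNIP and chr2:111120664-111120763 (plus strand) for BCL2L11. A match is a description of the letters, not evidence of binding in these cells.
PIK3CA: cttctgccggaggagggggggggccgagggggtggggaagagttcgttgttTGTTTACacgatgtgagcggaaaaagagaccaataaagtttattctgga
TXNIP: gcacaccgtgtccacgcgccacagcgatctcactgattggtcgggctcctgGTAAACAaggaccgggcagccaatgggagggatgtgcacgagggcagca
BCL2L11: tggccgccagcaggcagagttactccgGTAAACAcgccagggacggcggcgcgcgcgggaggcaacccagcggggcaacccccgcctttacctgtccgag

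The PI3K pathway's own components moved less. Of 38 tested, 14 rose and 4 fell, beside 8.32% and 9.0% of all genes, with a median log2 fold change of 0.039. The largest rise was in PIK3IP1, a membrane protein that inhibits p110, which had 3.99, 3.61 and 4.23 CPM in the BYL719 libraries, against 2.04, 2.23 and 2.49 CPM in the DMSO libraries. The groups did not overlap although the gene was low (log2 fold change 0.81, SE 0.0915, adjusted p = 1.82e-06). SGK1, a kinase related to AKT (GRCh38 chromosome 6, 134169246 to 134318112), had 56.6, 58.2 and 59.2 CPM in the BYL719 libraries, against 40.6, 42.2 and 44.9 CPM in the DMSO libraries, with every BYL719 library above DMSO (log2 fold change 0.45, SE 0.0338, adjusted p = 1.39e-08). Small rises were seen in lipid phosphatase genes that act against PI3K, with INPP5K at 0.19 and INPP4B at 0.15, and in TSC1, a restraint of mTORC1, at 0.14 on the log2 scale. The regulatory subunit gene PIK3R3 and the mTORC1 subunit gene RPTOR fell, at -0.14 and -0.10. AKT1 averaged 241 ± 5.48 CPM with BYL719 and 248 ± 3.7 CPM with DMSO and AKT2 averaged 132 ± 1.51 CPM with BYL719 and 134 ± 0.955 CPM with DMSO, and neither was called (adjusted p = 0.326 and 0.666). With effective-length offsets 10 of the components were higher and 0 lower, and with all 12 MCF10A libraries in the fit 3 were higher and 0 lower. INPP5K, INPP4B, TSC1, PIK3R3 and RPTOR lost their calls with all 12 MCF10A libraries in the fit, INPP4B and RPTOR with 9 of them, without knock-in DMSO, and PIK3R3 and RPTOR with offsets for effective transcript length. RPTOR was not called without BYL719 replicate 2 or 3 or DMSO replicate 1 or 3 (adjusted p = 0.0540 to 0.120).

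Receptors and adaptors upstream of PI3K rose or were not called. Of 25 tested, 12 rose and 0 fell, beside 8.32% and 9.0% of all genes (4 higher and 0 lower with all 12 MCF10A libraries in the fit), made up of 8 of 15 receptor tyrosine kinases and 4 of 10 adaptors, with a median log2 fold change of 0.080. Beside ERBB3, INSR and IRS2, the adaptor genes GRB7 and GAB2 had the largest changes. GRB7, which binds ERBB receptors (GRCh38 chromosome 17, 39737927 to 39747291), had 32.9, 33.7 and 34 CPM in the BYL719 libraries, against 20.8, 20.7 and 21.2 CPM in the DMSO libraries, and its groups were clearly apart (log2 fold change 0.68, SE 0.0312, adjusted p = 4.28e-12). GAB2, a docking protein for the p85 subunit (GRCh38 chromosome 11, 78215297 to 78418348), had 6.1, 6.12 and 6.34 CPM in the BYL719 libraries, against 3.85, 4.11 and 4.09 CPM in the DMSO libraries, also without overlap (log2 fold change 0.62, SE 0.0663, adjusted p = 8.10e-07). The IGF-1 receptor gene IGF1R rose by 0.23, FGFR2 by 0.21, GAB1 by 0.19, FGFR3 by 0.14 and EGFR by 0.12 on the log2 scale. The ephrin receptor gene EPHA2 had 46.8, 41 and 35.8 CPM in the BYL719 libraries, against 75.9, 61.5 and 60.4 CPM in the DMSO libraries. Its BYL719 libraries were all lower, replicate 1 was the highest of each group, and the gene was not called (adjusted p = 0.0564), whereas it fell with a replicate block (adjusted p = 1.06e-14), with DESeq2 and without robust estimation. IGF1R, FGFR2, GAB1, FGFR3 and EGFR lost their calls with all 12 MCF10A libraries in the fit and EGFR with 9 of them, without knock-in DMSO.

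Ligands of the EGFR family went the other way. Of 11 ligand and restraint genes tested, 2 rose and 5 fell, beside 8.32% and 9.0% of all genes (1 higher and 1 lower with all 12 MCF10A libraries in the fit). The 2 that rose do not encode ligands: ERRFI1, described above, and LRIG3, a membrane protein of the LRIG family (0.16). EPGN, which encodes epigen (GRCh38 chromosome 4, 74308473 to 74315307), had 7.83, 7.09 and 7.19 CPM in the BYL719 libraries, against 11.4, 11.8 and 11.9 CPM in the DMSO libraries, with BYL719 lower in every library (log2 fold change -0.67, SE 0.0536, adjusted p = 1.76e-08). AREG, which encodes amphiregulin, averaged 30.7 ± 3.08 CPM with BYL719 and 45.8 ± 3.39 CPM with DMSO (log2 fold change -0.58, SE 0.0984, adjusted p = 0.0220). EREG, TGFA and HBEGF, which encode further ligands, were at -0.38, -0.26 and -0.27 on the log2 scale. LRIG3, AREG, EREG, TGFA and HBEGF lost their calls with all 12 MCF10A libraries in the fit, AREG, EREG, TGFA and HBEGF with 9 of them, without knock-in DMSO, EREG and TGFA with offsets for effective transcript length, and EREG without robust estimation. AREG was not called without BYL719 replicate 2 or DMSO replicate 1 or 2 (adjusted p = 0.0556 to 0.0973), nor was EREG without BYL719 replicate 2 or 3 or DMSO replicate 1 or 2 or 3 (adjusted p = 0.0665 to 0.137).

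Genes of cholesterol synthesis and uptake fell together. Of 25 tested, 21 fell and 0 rose, beside 9.0% and 8.32% of all genes, with a median log2 fold change of -0.22. The summed level of all 26 members, tested or not, was 4923 to 5124 CPM with BYL719 and 5821 to 5867 CPM with DMSO. Of the 20 synthesis enzymes 18 fell, from the thiolase ACAT2 (-0.15) to the reductase DHCR7. The largest fall was in HMGCS1, given above. IDI1, the isomerase of the isoprenoid unit, averaged 189.8 ± 2.09 CPM with BYL719 and 252 ± 7.44 CPM with DMSO (log2 fold change -0.41, SE 0.0269, adjusted p = 1.11e-09). The later enzymes SQLE, the squalene epoxidase, LSS, the lanosterol synthase, MSMO1, the methylsterol monooxygenase, and DHCR7, a reductase of the last steps, were at -0.24, -0.22, -0.33 and -0.22 on the log2 scale. ACAT2 and DHCR7 lost their calls with all 12 MCF10A libraries in the fit.

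Among genes that regulate or carry cholesterol, INSIG1, the sterol sensor that retains SREBP in the endoplasmic reticulum and is itself an SREBP target (GRCh38 chromosome 7, 155297776 to 155310235), had 85.5, 86.4 and 84.7 CPM in the BYL719 libraries, against 121, 122 and 124 CPM in the DMSO libraries. Values within a group differed by at most 3 CPM (log2 fold change -0.51, SE 0.0249, adjusted p = 1.03e-11). The cholesterol carrier gene STARD4 was at -0.20 on the log2 scale. The genes of the SREBP machinery itself were not called: SREBF2 had a log2 fold change of -0.037 (adjusted p = 0.425) and SCAP of 0.078 (adjusted p = 0.0533, or 0.0483 with a replicate block). With all 12 MCF10A libraries in the fit 9 of the 25 were lower and 0 higher. STARD4 lost its call with all 12 MCF10A libraries in the fit.

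**Figure D3:**
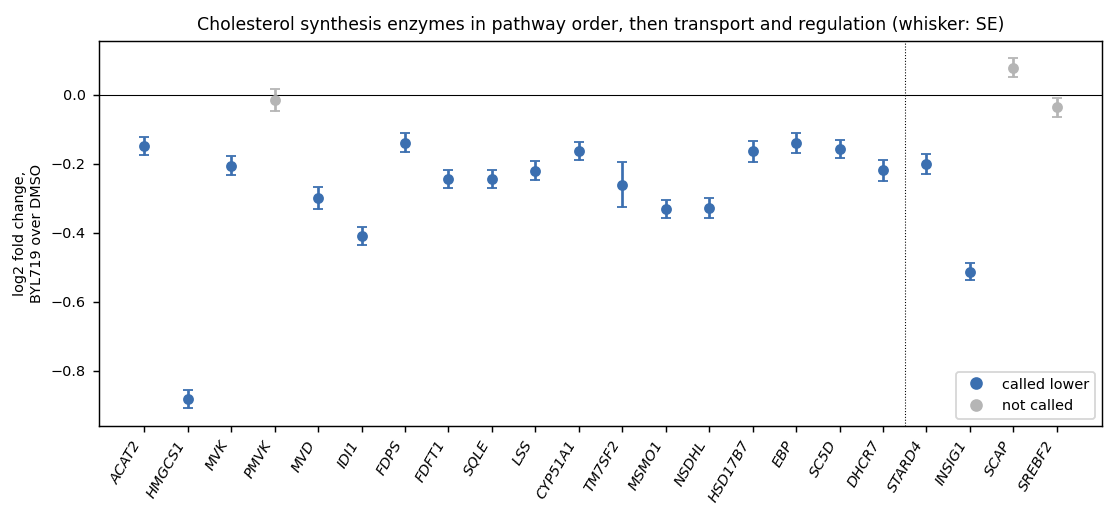
Log2 fold change of BYL719 over DMSO, with its SE as a bar, for 18 enzymes of cholesterol synthesis in pathway order, followed by STARD4, INSIG1, SCAP and SREBF2. Blue points were called lower and grey points were not called. Points lie below 0 for all 18 enzymes drawn, with HMGCS1 the lowest, and PMVK, SCAP and SREBF2 were not called.

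The promoter of INSIG1 is shown because its E-box, CACGTG, lies 55 bases before the RefSeq start site. The GENCODE span given above for the gene begins upstream of that site, so the window printed here lies within the span. Of the 16 called cholesterol genes with a window in the table, 3 hold CACGTG and 0 hold the sterol element letters TCACNCCAC on either strand, beside 7.43% and 1.15% of all promoters. Among the 19 list members with a window, called or not, 4 hold CACGTG and 1 holds TCACNCCAC. The 100 bases are chr7:155297778-155297877 on the plus strand of GRCh38.p14, with the E-box in capitals.
INSIG1: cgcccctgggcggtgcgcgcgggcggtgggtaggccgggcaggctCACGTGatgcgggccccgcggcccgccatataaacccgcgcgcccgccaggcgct

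Fatty acid synthesis moved less evenly, with 7 of 14 genes lower and 1 higher, beside 9.0% and 8.32% of all genes (0 higher and 0 lower with all 12 MCF10A libraries in the fit) and a median log2 fold change of -0.10. ACLY, which makes cytosolic acetyl-CoA (GRCh38 chromosome 17, 41866908 to 41930542), averaged 476 ± 12.7 CPM with BYL719 and 577 ± 10.5 CPM with DMSO (log2 fold change -0.28, SE 0.0272, adjusted p = 2.59e-07). SCD, the stearoyl-CoA desaturase, averaged 828 ± 25.3 CPM with BYL719 and 1008 ± 28.6 CPM with DMSO (log2 fold change -0.28, SE 0.0294, adjusted p = 5.70e-07). The elongase gene ELOVL6, the SREBP-1 gene SREBF1 and the acetate-using ACSS2 were at -0.19, -0.18 and -0.17 on the log2 scale. FASN, the fatty acid synthase, had 952, 898 and 898 CPM in the BYL719 libraries, against 1045, 919 and 1000.1 CPM in the DMSO libraries, the groups overlapped, and it was not called (adjusted p = 0.152, or 0.0186 with a replicate block). ACLY, SCD, ELOVL6, SREBF1 and ACSS2 lost their calls with all 12 MCF10A libraries in the fit, SREBF1 with 9 of them, without knock-in DMSO, and SREBF1 with offsets for effective transcript length.

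Genes of ribosome biogenesis were lower. Of 39 genes on the MYC and ribosome biogenesis list, 24 fell and 3 rose, beside 9.0% and 8.32% of all genes (1 higher and 7 lower with all 12 MCF10A libraries in the fit), with a median log2 fold change of -0.14. Falls were seen in 17 of 25 assembly and rRNA processing factors and in 7 of 8 RNA polymerase I and III genes. NOP58, a core protein of box C/D small nucleolar ribonucleoproteins (GRCh38 chromosome 2, 202265716 to 202303666), had 128, 129 and 129 CPM in the BYL719 libraries, against 157, 155 and 155 CPM in the DMSO libraries. Replicates within a group were within 3 CPM of each other (log2 fold change -0.27, SE 0.0246, adjusted p = 8.76e-08). RRS1, a factor for large subunit assembly, averaged 21.6 ± 0.921 CPM with BYL719 and 29.5 ± 2.49 CPM with DMSO (log2 fold change -0.46, SE 0.0633, adjusted p = 0.00204). PPAN, another factor for the large subunit, averaged 22.6 ± 1.43 CPM with BYL719 and 30.4 ± 1.54 CPM with DMSO (log2 fold change -0.43, SE 0.0477, adjusted p = 4.70e-05). WDR43, NOP16, BYSL and NOP2, all factors of rRNA processing or subunit assembly, were at -0.36, -0.36, -0.35 and -0.32 on the log2 scale. The polymerase subunit gene POLR1B was at -0.32. Nucleolin, NCL, one of the most abundant nucleolar proteins, averaged 1361 ± 29.5 CPM with BYL719 and 1404 ± 33.1 CPM with DMSO and was not called (adjusted p = 0.314). NOP16, BYSL and POLR1B lost their calls with all 12 MCF10A libraries in the fit and POLR1B with offsets for effective transcript length.

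MYC itself had 136, 124 and 117 CPM in the BYL719 libraries, against 174, 151 and 152 CPM in the DMSO libraries. The BYL719 libraries were all lower, but with the scatter inside each group the gene was not called (log2 fold change -0.34, SE 0.092, adjusted p = 0.0850), whereas it fell with a replicate block (adjusted p = 1.28e-10), with DESeq2 and without robust estimation. Of the 6 listed genes of MYC and its partners, 2 rose and 0 fell, with a median log2 fold change of 0.0007. The 2 that rose encode MYC antagonists, MXD4 at 0.28 and MXD3 at 0.31 on the log2 scale. MAF1, the repressor of RNA polymerase III, rose by 0.10. Of 22 called members of the list with a promoter window, 6 hold the E-box CACGTG beside 7.43% of all promoters. MXD4, which rose, is among the holders. Of all 31 members with a window, called or not, 9 hold it, so the letters were not more frequent in called members. Genes of purine and pyrimidine synthesis fell in 7 of 14 cases and rose in 0, beside 9.0% and 8.32% of all genes. Among them, the CTP synthase gene CTPS1 was at -0.21, UMPS, which makes UMP, at -0.22 and PPAT, the first step of purine synthesis, at -0.25. Of 6 folate genes, 0 were called in either direction. MXD3, MAF1 and PPAT lost their calls with all 12 MCF10A libraries in the fit, MAF1 with 9 of them, without knock-in DMSO, and MAF1 with offsets for effective transcript length. MAF1 was not called without BYL719 replicate 2 (adjusted p = 0.0789).

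Chaperone genes fell in 8 of 12 cases and rose in 0, beside 9.0% and 8.32% of all genes (0 higher and 4 lower with all 12 MCF10A libraries in the fit), and their summed level was 10717 to 11005 CPM with BYL719 and 11692 to 12170.4 CPM with DMSO. HSPA8, the constitutive HSP70 (GRCh38 chromosome 11, 123057489 to 123063230), had 2105, 2029 and 2032 CPM in the BYL719 libraries, against 2485, 2491 and 2609 CPM in the DMSO libraries. All BYL719 libraries were lower (log2 fold change -0.30, SE 0.0284, adjusted p = 1.94e-07). The stress-inducible HSPA1A had 259.6, 249.5 and 238 CPM in the BYL719 libraries, against 363, 351 and 374 CPM in the DMSO libraries (log2 fold change -0.54, SE 0.032, adjusted p = 1.78e-09). HSPA1A and HSPA1B are near-identical copies, so the division of reads between them is uncertain, and HSPA1B was at -0.34. The co-chaperone genes DNAJB1, BAG3 and HSPH1 were at -0.29, -0.28 and -0.18 on the log2 scale. BAG3 and HSPH1 lost their calls with all 12 MCF10A libraries in the fit and BAG3 with 9 of them, without knock-in DMSO.

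FOSL1, given above, fell the most among genes fed by ERK signalling, and the ERK phosphatase gene DUSP5, cyclin D1 and EGR1 were called after it. Of 20 on the list of ERK feedback and output, 7 fell and 1 rose, beside 9.0% and 8.32% of all genes (1 higher and 3 lower with all 12 MCF10A libraries in the fit), with a median log2 fold change of -0.34. The number that fell was 14 with a replicate block, 14 with DESeq2 and 13 without robust estimation. CCND1, cyclin D1 (GRCh38 chromosome 11, 69641087 to 69654474), had 68.3, 64.3 and 61.8 CPM in the BYL719 libraries, against 108, 99.7 and 93.1 CPM in the DMSO libraries. Its groups did not overlap (log2 fold change -0.63, SE 0.0676, adjusted p = 0.00301). DUSP5, a nuclear ERK phosphatase (GRCh38 chromosome 10, 110497838 to 110511544), had 4.55, 4.07 and 3.74 CPM in the BYL719 libraries, against 7.47, 6.0 and 6.18 CPM in the DMSO libraries, with BYL719 lower throughout (log2 fold change -0.67, SE 0.0924, adjusted p = 0.000127). EGR1, an immediate early transcription factor (GRCh38 chromosome 5, 138465490 to 138469315), had 33.7, 33.5 and 31.1 CPM in the BYL719 libraries, against 50.5, 45.6 and 45.6 CPM in the DMSO libraries, again with no overlap (log2 fold change -0.53, SE 0.0438, adjusted p = 2.71e-06). DUSP6, the cytoplasmic ERK phosphatase, had 18.7, 15.5 and 13.6 CPM in the BYL719 libraries, against 26, 21.8 and 21.6 CPM in the DMSO libraries, and DUSP4 had 31, 26.5 and 23.7 CPM in the BYL719 libraries, against 46.6, 39 and 38.4 CPM in the DMSO libraries. For both the BYL719 libraries were lower and replicate 1 was the highest of each group, and neither was called (adjusted p = 0.108 and 0.0598), whereas both fell with a replicate block (adjusted p = 1.28e-10 and 3.63e-14), with DESeq2 and without robust estimation. SPRY4, a sprouty inhibitor of the pathway, was not called either (-0.61, adjusted p = 0.152, or 4.86e-07 with the block) and was called under the same 3 settings, whereas its relative SPRY2 rose (13.2 ± 0.751 CPM with BYL719 and 10.1 ± 0.418 CPM with DMSO, log2 fold change 0.38). DUSP5 lost its call with all 12 MCF10A libraries in the fit and also with 9 of them, without knock-in DMSO.

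Immediate early genes were split, with 4 of 23 higher and 6 lower, beside 8.32% and 9.0% of all genes (1 higher and 2 lower with all 12 MCF10A libraries in the fit). FOSL2, which encodes the AP-1 subunit FRA2, rose by 0.46, and DUSP1, a phosphatase of p38 and JNK, rose by 0.30 on the log2 scale. IER2 was at -0.35, the zinc finger gene KLF10 at -0.31, and the matricellular genes CCN1 and CCN2 at -0.28 and -0.34. JUN, FOS and IER3 had lower means that did not pass the test, at -0.36, -0.25 and -0.45 (adjusted p = 0.0796, 0.0595 and 0.10), and with a replicate block JUN and IER3 passed it (adjusted p = 0.000182 and 7.64e-12), as they did with DESeq2 and without robust estimation. FOSL2, IER2, KLF10 and CCN2 lost their calls with all 12 MCF10A libraries in the fit and KLF10 and CCN2 with 9 of them, without knock-in DMSO.

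Among regulators of the G1 phase, 4 of 21 rose and 7 fell, beside 8.32% and 9.0% of all genes (1 higher and 2 lower with all 12 MCF10A libraries in the fit). The risers were CDKN1B, RBL2 and CCNG2, given above, and RB1 (0.085). Beside CCND1, the phosphatase gene CDC25A, which activates CDK2, averaged 43.6 ± 1.09 CPM with BYL719 and 53.7 ± 0.654 CPM with DMSO (log2 fold change -0.30, SE 0.0289, adjusted p = 2.18e-07), E2F3 was at -0.23 and CCND3 at -0.13. Of 36 replication and mitosis genes, 8 fell and 5 rose, beside 9.0% and 8.32% of all genes (1 higher and 1 lower with all 12 MCF10A libraries in the fit), with a median log2 fold change of -0.041. The replication licensing factor CDC6 was at -0.19 and the ribonucleotide reductase subunit RRM2 at -0.21, whereas topoisomerase TOP2A was at 0.21 and the kinetochore proteins CENPF and CENPE at 0.16 and 0.14. RB1, E2F3, CCND3, RRM2, CENPF and CENPE lost their calls with all 12 MCF10A libraries in the fit, RB1 and CCND3 with 9 of them, without knock-in DMSO, RB1 and CENPF with offsets for effective transcript length, and RB1 without robust estimation. RB1 was not called without BYL719 replicate 2 or 3 or DMSO replicate 1 or 2 (adjusted p = 0.0518 to 0.201).

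The BCL2 family gave 3 rises and 2 falls (4 with a replicate block) among 15 genes, beside 8.32% and 9.0% of all genes (1 higher and 0 lower with all 12 MCF10A libraries in the fit). BMF, a BH3-only protein that binds BCL2 relatives (GRCh38 chromosome 15, 40087890 to 40108892), had 22.6, 24.2 and 25.6 CPM in the BYL719 libraries, against 11.8, 13.6 and 14.9 CPM in the DMSO libraries. The lowest BYL719 value was well above the highest DMSO value (log2 fold change 0.85, SE 0.10, adjusted p = 0.00441). BCL2L11, which encodes BIM, averaged 40.4 ± 1.87 CPM with BYL719 and 33.6 ± 1.32 CPM with DMSO, and BBC3, which encodes PUMA, averaged 6.69 ± 0.584 CPM with BYL719 and 5.39 ± 0.36 CPM with DMSO (log2 fold change 0.31). The guardian gene BCL2L1 was at -0.22 and the BH3-only gene BID at -0.15 on the log2 scale. BCL2L11, BBC3, BCL2L1 and BID lost their calls with all 12 MCF10A libraries in the fit, BCL2L1 with 9 of them, without knock-in DMSO, and BBC3 and BID with offsets for effective transcript length.

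Around central metabolism, small numbers of each list changed, set beside the 8.32% of all genes that rose and the 9.0% that fell. Of 14 pyruvate dehydrogenase genes, 2 rose, PDK4 and PDK3 (0.13), and 2 fell, the phosphatase gene PDP2 (-0.26) and the complex subunit gene DLAT (-0.080). Of 12 glutamine and glutamate enzymes, GLUL and the glutamate dehydrogenase gene GLUD1 (0.23) rose, and GOT1 (-0.10) and PSAT1 (-0.12), both aminotransferases, fell. Among 31 glycolytic and HIF-regulated genes there were 2 rises and 5 falls, with a median of -0.033. Hexokinase HK2 averaged 26.8 ± 1.0 CPM with BYL719 and 34.1 ± 2.31 CPM with DMSO (log2 fold change -0.35, SE 0.0461, adjusted p = 0.000170), and the collagen hydroxylase gene P4HA1, a HIF target, averaged 74.6 ± 1.73 CPM with BYL719 and 58.9 ± 0.684 CPM with DMSO (log2 fold change 0.34, SE 0.0265, adjusted p = 1.21e-08). PDK3, PDP2, DLAT, GLUD1, GOT1, PSAT1 and HK2 lost their calls with all 12 MCF10A libraries in the fit, PDK3, DLAT, GOT1 and HK2 with 9 of them, without knock-in DMSO, PDK3, PDP2 and DLAT with offsets for effective transcript length, and DLAT without robust estimation. PDK3 was not called without BYL719 replicate 3 or DMSO replicate 2 (adjusted p = 0.0518 to 0.0950), nor was DLAT without BYL719 replicate 2 or 3 or DMSO replicate 2 or 3 (adjusted p = 0.0960 to 0.244), nor was GOT1 without BYL719 replicate 3 or DMSO replicate 3 (adjusted p = 0.0662 to 0.0896).

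Amino acid supply genes gave 4 rises and 7 falls of 37, beside 8.32% and 9.0% of all genes. The glutamine carrier SLC38A2 averaged 621 ± 11.5 CPM with BYL719 and 477 ± 1.4 CPM with DMSO (log2 fold change 0.38, SE 0.0254, adjusted p = 1.59e-09) and the glycine carrier SLC6A9 was at 0.40, whereas SLC7A5, the leucine carrier, averaged 2097 ± 89.3 CPM with BYL719 and 2414 ± 72.3 CPM with DMSO (log2 fold change -0.20, SE 0.032, adjusted p = 0.000128). The stress regulators TRIB3 and NUPR1 were at -0.47 and 0.45. NRF2 and pentose phosphate genes gave 2 rises and 8 falls of 20, beside 8.32% and 9.0% of all genes: the glutamate-cysteine ligase subunit GCLC was at 0.26, and OSGIN1 and the sulfiredoxin gene SRXN1 were at -0.48 and -0.29. Of 33 lysosome and autophagy genes, 8 rose and 2 fell, beside 8.32% and 9.0% of all genes. ULK1, the kinase that starts autophagy (GRCh38 chromosome 12, 131894651 to 131923167), had 118, 119 and 121 CPM in the BYL719 libraries, against 92.3, 88.9 and 93.7 CPM in the DMSO libraries, with all BYL719 libraries higher (log2 fold change 0.38, SE 0.0266, adjusted p = 2.70e-09). ATG14, of the autophagy lipid kinase complex, FNIP1, a partner of folliculin, and the factor MITF were at 0.26, 0.24 and 0.24. SLC6A9, SLC7A5, TRIB3, NUPR1, SRXN1, ATG14, FNIP1 and MITF lost their calls with all 12 MCF10A libraries in the fit, TRIB3 and SRXN1 with 9 of them, without knock-in DMSO, and MITF with offsets for effective transcript length.

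YPEL genes, linked to quiescence, rose in 4 of 5 cases, beside 8.32% of all genes (1 higher and 0 lower with all 12 MCF10A libraries in the fit), with a median log2 fold change of 0.44: YPEL1 was at 0.59, YPEL3 at 0.51, YPEL2 at 0.44 and YPEL5 at 0.24. Of 13 Krüppel-like factor genes, 7 rose and 1 fell, beside 8.32% and 9.0% of all genes (2 higher and 0 lower with all 12 MCF10A libraries in the fit). KLF9 (GRCh38 chromosome 9, 70384597 to 70414624) had 27.9, 27.6 and 28.7 CPM in the BYL719 libraries, against 15.7, 18 and 18.9 CPM in the DMSO libraries, without overlap (log2 fold change 0.68, SE 0.0613, adjusted p = 9.64e-05). KLF12, KLF3, KLF5 and KLF7 were at 0.35, 0.27, 0.23 and 0.22, and KLF10 was the one that fell. Of 6 MondoA targets, 3 rose and 1 fell, beside 8.32% and 9.0% of all genes. The risers included the arrestin-domain gene ARRDC2 (0.27) and PDK4, which is also on the FOXO list. The 1 that fell was KLF10, so these counts are not separate from those of the FOXO and KLF lists. YPEL1, YPEL3, YPEL2, KLF12, KLF3 and KLF7 lost their calls with all 12 MCF10A libraries in the fit, YPEL3 with 9 of them, without knock-in DMSO, and YPEL1 with offsets for effective transcript length.

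Secreted inflammatory mediators were low. Of 9 secreted mediators tested 3 fell and 0 rose, beside 9.0% and 8.32% of all genes. The summed level of all 12 mediators, tested or not, was 11.6 to 13.3 CPM with BYL719 and 17.4 to 22.1 CPM with DMSO. IL1A, interleukin-1 alpha, had 3.82, 3.73 and 3.56 CPM in the BYL719 libraries, against 6.07, 5.61 and 5.13 CPM in the DMSO libraries, with BYL719 below DMSO in every library (log2 fold change -0.60, SE 0.0748, adjusted p = 6.47e-06). IL1B averaged 0.722 ± 0.040 CPM with BYL719 and 1.17 ± 0.167 CPM with DMSO (log2 fold change -0.69, SE 0.14, adjusted p = 0.00134). Of 8 NF-kB regulators and receptors, 3 rose and 1 fell, against the same background, with a median log2 fold change of 0.078. Their summed level was 404 to 428 CPM with BYL719 and 381 to 396 CPM with DMSO. RELB and NFKBIA rose by 0.28 and 0.20 on the log2 scale. Of 21 p53 targets 4 rose and 7 fell, beside 8.32% and 9.0% of all genes: the polo-like kinase genes PLK2 and PLK3 and the exonuclease AEN were at -0.46, -0.40 and -0.51, and TP53INP1, of autophagy and cell death, and the desmosomal PERP were at 0.31 and 0.18. IL1A, IL1B, RELB, NFKBIA, PLK3, TP53INP1 and PERP lost their calls with all 12 MCF10A libraries in the fit and IL1A and PLK3 with 9 of them, without knock-in DMSO.

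Among genes of cell contact, 5 of 14 claudin and junction genes rose and 1 fell, beside 8.32% and 9.0% of all genes. Beside CLDN1, the junction genes F11R, DSP and TJP1 were at 0.17, 0.16 and 0.12, and CLDN4 was the one that fell (-0.15). YAP target genes fell in 5 of 12 cases and rose in 1, against the same background, with AMOTL2, a junction-associated YAP inhibitor, averaging 35.2 ± 1.9 CPM with BYL719 and 46.5 ± 0.731 CPM with DMSO (log2 fold change -0.40, SE 0.0351, adjusted p = 8.76e-08). Of 22 TGF-beta genes, 7 rose and 0 fell, beside 8.32% and 9.0% of all genes, with the co-receptor gene TGFBR3 at 0.36, BMP2 at 0.35 and SMAD3 at 0.20. TP63, which encodes the p63 factor of basal epithelium (GRCh38 chromosome 3, 189631416 to 189897279), had 105, 106 and 108 CPM in the BYL719 libraries, against 75.5, 78.3 and 83.2 CPM in the DMSO libraries. Its groups did not overlap (log2 fold change 0.43, SE 0.0309, adjusted p = 1.37e-08). The mesenchymal regulator ZEB2 averaged 8.48 ± 0.558 CPM with BYL719 and 5.66 ± 0.394 CPM with DMSO and rose by 0.59 on the log2 scale. TWIST1, another mesenchymal regulator, averaged 15.7 ± 0.275 CPM with BYL719 and 12.4 ± 0.627 CPM with DMSO and rose by 0.33, while vimentin was not called. The 14-3-3 sigma gene SFN was at -0.35. On the lists of metabolism, inflammation, p53, YAP, TGF-beta and junction genes, all 12 MCF10A libraries in the fit left at most 3 genes called in a direction. F11R, DSP, TJP1, CLDN4, TGFBR3, BMP2, SMAD3 and SFN lost their calls with all 12 MCF10A libraries in the fit, TJP1, CLDN4 and SMAD3 with 9 of them, without knock-in DMSO, and CLDN4 and SMAD3 with offsets for effective transcript length. CLDN4 was not called without BYL719 replicate 3 (adjusted p = 0.0715).

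**Figure D4:**
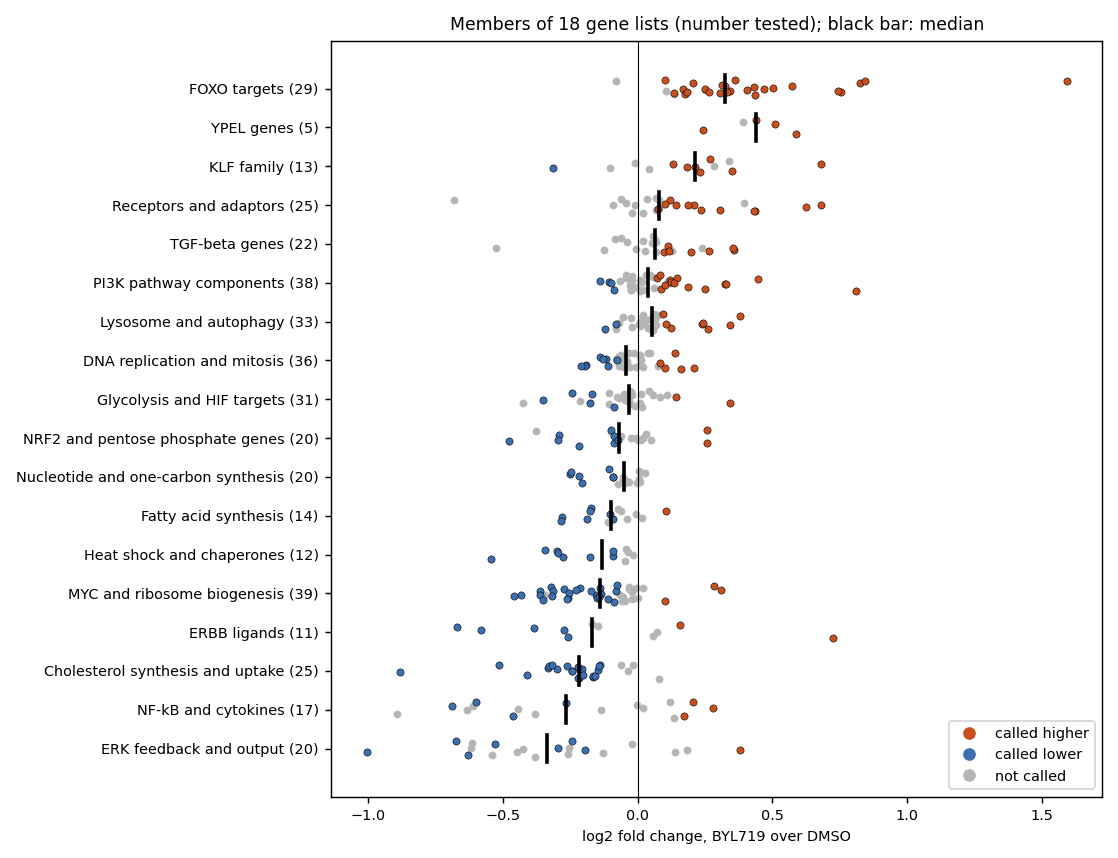
Log2 fold change of BYL719 over DMSO for each tested gene of 18 lists, 1 row a list, with orange points for genes called higher, blue for genes called lower, grey for genes not called, and a bar at the list's median. The FOXO and YPEL lists lie to the right of 0, with medians of 0.32 and 0.44, and the cholesterol list lies to the left, with a median of -0.22. The ERK and NF-kB lists had medians of -0.34 and -0.26, with members on both sides of 0. All chaperone genes lie below 0 (median -0.13). Medians were 0.22 for the KLF family, -0.17 for ERBB ligands and -0.14 for ribosome biogenesis. The remaining lists had medians between -0.098 and 0.080.

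At the level of single transcripts, 84309 were tested, 99 were called higher (0.117%) and 75 lower (0.089%), together 0.206% of those tested. Of these 174 transcripts, 155 belonged to genes called in the gene test and 154 of these had the gene's direction. The lowest p was in HMGCS1-202, with 130.5, 131 and 127 CPM in the BYL719 libraries, against 238, 245 and 239 CPM in the DMSO libraries (log2 fold change -0.89, SE 0.0237, adjusted p = 0.00114). Its groups lay far apart. ERRFI1-201 had 89.2, 86.9 and 85.9 CPM in the BYL719 libraries, against 54.9, 53.9 and 52.2 CPM in the DMSO libraries, with BYL719 higher in each library (log2 fold change 0.70, SE 0.0309, adjusted p = 0.00874). Glutamine synthetase was called through 5 transcripts in the same direction, GLUL-203 (0.92), the most abundant of them, GLUL-204 (0.69), GLUL-205 (0.92), GLUL-211 (0.90) and GLUL-212 (1.21). Transcripts of PDK4, BCL6, CCNG2, INSIG1, IDI1, SLC38A2 and NOP58 were called in the direction of their genes, and so were GAREM1-202, of an adaptor of EGFR signalling (0.65), and HBP1-201, of a cell cycle repressor (0.79).

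A further 19 called transcripts belonged to genes that were not called, and 15 of these 19 were listed at 0 in all 3 libraries of a group. Among the 4 that were not, SRSF5-217, of an SR splicing factor, had 54.9, 50.3 and 53.5 CPM in the BYL719 libraries, against 70.6, 68.4 and 69.6 CPM in the DMSO libraries (adjusted p = 0.0353), so that BYL719 was lower in each library. RCC1L-202 had 12, 11.3 and 12.2 CPM in the BYL719 libraries, against 7.89, 8.36 and 8.3 CPM in the DMSO libraries (adjusted p = 0.0417), with BYL719 higher throughout. These transcript calls were fragile: leaving out any 1 library left 0 to 4 transcripts higher and 1 lower, a replicate block left 0 in both directions, while a filter of 1 CPM gave 339 higher and 241 lower. Salmon's own assignment error is not in this test.

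The share of a gene's transcripts changed in 118 of 12545 genes tested, 0.941%. For 83 of these 118 the leading transcript was listed at 0 in all libraries of a group, as it was for 21 of the 24 whose share moved by at least 10 percentage points. Among the 118, CNOT2, a scaffold of the CCR4-NOT deadenylase, had reads in both groups and moved by more than 10 points. Its transcript CNOT2-202 took 11.9, 10.6 and 2.25% in the BYL719 libraries, against 17.5, 22.1 and 24.5% in the DMSO libraries (adjusted p = 0.000495). BYL719 shares were lower in every library. RPS9-213, of a ribosomal protein of the small subunit, took 18.2, 25.1 and 21.2% in the BYL719 libraries, against 14, 17.2 and 9.76% in the DMSO libraries of the gene's TPM (adjusted p = 0.000142), and its groups did not overlap. The share of RPS9-213 moved by 7.87 points, less than 10. With only transcripts of at least 10% of their gene, 27 of 9949 genes (0.271%) changed, and leaving out any 1 library moved the count of 118 to between 248 and 359. In that setting PTK2-203, of focal adhesion kinase, took 23, 23.1 and 21.4% in the BYL719 libraries, against 12.3, 14.3 and 15.2% in the DMSO libraries (adjusted p = 0.000853), and OCLN-201, of occludin, took 20.4, 17.8 and 25.4% in the BYL719 libraries, against 10.5, 6.82 and 6.97% in the DMSO libraries (adjusted p = 0.0209). Both took larger shares in all BYL719 libraries, and neither gene was among the 118.

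The response of parental cells was set against that of the PIK3CA H1047R knock-in line, fitted with its own 6 libraries and with the difference tested over all 12. The difference was called for 2.87% of 21079 genes, 168 with a higher (0.797%) and 438 with a lower (2.08%) parental than knock-in effect, and in the knock-in line alone 13.1% of 19995 genes were called, 7.23% higher and 5.83% lower. Of 331 named or listed genes called in parental cells, 319 had the same sign in knock-in cells, 218 were also called there in the same direction, and 84 had a called difference. For FOXO targets, the median log2 fold change was 0.32 in parental and 1.02 in knock-in cells, and the difference was called for 19 of 29. PDK4 had 155, 196 and 202 CPM in the BYL719 libraries, against 18.2, 14.8 and 16.3 CPM in the DMSO libraries in the knock-in line. Its log2 fold changes were 1.60 in parental and 3.49 in knock-in cells (difference -1.89, SE 0.16, adjusted p = 9.00e-05). ERBB3 had 68.5, 76.8 and 78.7 CPM in the BYL719 libraries, against 23.3, 18.9 and 23.1 CPM in the DMSO libraries in the knock-in line, and log2 fold changes of 0.43 in parental and 1.78 in knock-in cells (difference -1.34, SE 0.11, adjusted p = 7.54e-05). GLUL was at 0.83 in parental and 2.29 in knock-in cells (difference -1.46, SE 0.0957, adjusted p = 2.21e-05). IRS2 was at 0.43 in parental and 1.56 in knock-in cells (difference -1.12, SE 0.105, adjusted p = 0.000159).

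Cholesterol genes had medians of -0.22 in parental and -0.36 in knock-in cells, with a called difference for 3 of 25, among them HMGCS1 at -0.88 in parental and -1.32 in knock-in cells (difference 0.44, SE 0.074, adjusted p = 0.00810). Ribosome biogenesis genes had medians of -0.14 in parental and -0.27 in knock-in cells, with a called difference for 7 of 39. For the ERK list the medians were -0.34 in parental and -0.37 in knock-in cells, and the difference was called for 0 of 20, which does not show that the lines respond alike. CCND1, for example, was at -0.63 in parental and -0.93 in knock-in cells (difference 0.30, SE 0.132, adjusted p = 0.271). CCN1, which fell in parental cells, had 38.8, 37.3 and 38.8 CPM in the BYL719 libraries, against 22.9, 25.1 and 25.1 CPM in the DMSO libraries in the knock-in line. It was at -0.28 in parental and 0.66 in knock-in cells (difference -0.94, SE 0.0854, adjusted p = 0.000150). These counts depended on 1 library: without knock-in DMSO replicate 2, whose chi-square per degree of freedom against the other replicates was 145.2 and 166.5 beside 9.39 between those, the difference was called higher for 863 genes and lower for 1011. With a replicate block within each line they were 52 and 252.

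**Figure D5:**
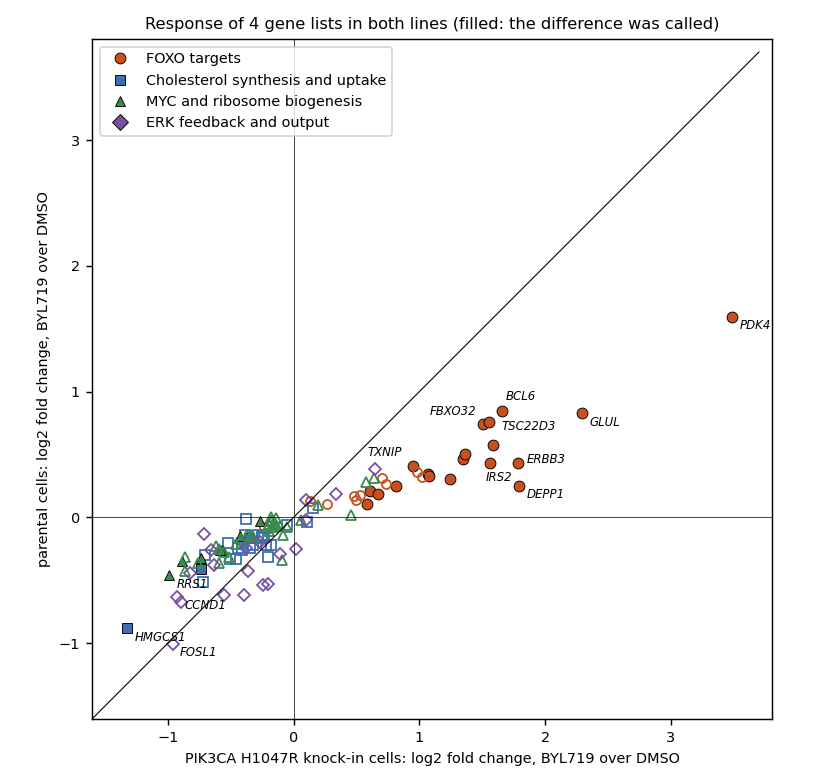
Log2 fold change of BYL719 over DMSO in parental cells (vertical axis) against that in PIK3CA H1047R knock-in cells (horizontal axis) for the genes of 4 lists, with the line of equal effects. Filled points had a called difference. FOXO targets lie below the line at the right, with PDK4 the farthest at 1.60 in parental and 3.49 in knock-in cells, while ERK genes scatter about the line with no filled point.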

How the data were processed

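RNA sequencing of 6 parental MCF10A libraries, 3 with BYL719 and 3 with DMSO, was analysed, with 6 knock-in libraries for the difference between lines. The authors trimmed paired reads of 150 nt with Trim Galore 0.6.1 and cutadapt, quantified transcripts with Salmon 1.2.1 and also named DESeq2 1.28.1, per the submitters' processing notes, which give GRCh38 for the human files. The deposited tables hold, per the file headers, estimated (expected) counts of read pairs, TPM and effective length for 207749 transcripts with 58434 gene identifiers, of which 58171 matched GENCODE 29 for coordinates.

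Expected counts, as deposited, were added up per gene, rounded to whole numbers and tested with edgeR 4.0.16 in R 4.3.3 (filterByExpr, TMM, robust quasi-likelihood, no covariate, two-sided, Benjamini-Hochberg adjustment over all genes tested). Every adjusted p in the text comes from edgeR unless DESeq2 is named. The 6 libraries were fitted alone, transcripts were tested in the same way, transcript shares with diffSpliceDGE of edgeR and shown as percent of the gene's summed deposited TPM, and the difference between lines as an interaction over 12 libraries. The CPM values were computed from the deposited counts. The SE is the absolute log2 fold change divided by the square root of the F statistic. Depth was 120177015 to 162755457 pairs per library.

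Named genes are the 15 largest rises and 15 largest falls among called genes with a mean of at least 1 CPM and groups that do not overlap (other biotypes apart), the 5 lowest p in each direction, up to 8 called members of each list with the largest change, well-known members that were not called, and PIK3CA, and a few of the genes that this rule names are not reported here. The members and lists were chosen with earlier results of these data known, so no list was tested as a set and list counts stand beside those of all genes. Alternatives were DESeq2 1.42.0, RLE scaling, other filters, effective-length offsets, no robust estimation, a replicate block, more libraries in the fit and leaving out each library. Reads shared between near-identical genes were divided by Salmon and its assignment error was not used. Without a stated strand, overlapping and antisense genes cannot be told apart. Promoter windows come from RefSeq on GRCh38.p14 and were searched for letters only. The code was tested on simulated data.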

Additional observations from a re-analysis of the deposited data

Results flagged for a closer look

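The response to BYL719 differed between parental and PIK3CA H1047R knock-in cells, by the test of the difference itself, for 71 of 193 genes that were called in parental cells and are named in the text. Values are the parental minus the knock-in effect on the log2 scale, so a negative value for a gene that rose means a smaller rise in parental cells. All 71 remained under an adjusted p of 0.05 without knock-in DMSO replicate 2, and 57 with a replicate block within each line. The effects had opposite signs for 2 genes: CCN1 (-0.94) and HIST2H4B (-2.01), the only one of the 71 with the larger effect in parental cells and a gene with near-identical copies.

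FOXO targets with a smaller parental rise were PDK4 (-1.89), GLUL (-1.46), ERBB3 (-1.34), IRS2 (-1.12), TNFSF10 (-1.01), INSR (-0.94), CCNG2 (-0.87), CITED2 (-0.86), BCL6 (-0.81), TSC22D3 (-0.79), FBXO32 (-0.76), MXI1 (-0.74), GABARAPL1 (-0.72), PIK3CA (-0.56), TXNIP (-0.54), KLF6 (-0.48) and CDKN1B (-0.39). Signalling genes of the same direction were PIK3IP1 (-2.28), GAB2 (-1.46), GRB7 (-1.23), IGF1R (-0.62), FOXO4 (-0.52), INPP5K (-0.51), SGK1 (-0.42), ERRFI1 (-0.41) and TGFBR3 (-0.60). Transcription factors and quiescence-linked genes were YPEL3 (-1.71), BACH2 (-1.71), YPEL1 (-1.67), YPEL2 (-0.83), YPEL5 (-0.44), KLF9 (-0.77), KLF7 (-0.61), MITF (-0.75), TP63 (-0.67) and NR1D2 (-0.57). Further genes that rose less in parental cells were CCDC85A (-2.24), TCP11L2 (-1.69), AMTN (-1.64), BMF (-1.44), GBP2 (-1.42), SYNE2 (-1.37), ABCA6 (-1.21), OSER1-DT (-0.76), ULK1 (-0.76), CLDN1 (-0.69), HAS2 (-0.69), SLC6A9 (-0.60), SLC38A2 (-0.49), PDCD4 (-0.49) and GCLC (-0.37).

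Genes that fell less in parental cells, with a positive difference, were the chaperones HSPA1A (0.73), HSPA1B (0.61), HSPA8 (0.44), DNAJB1 (0.38) and HSPH1 (0.36). In synthesis and growth they were HMGCS1 (0.44), IDI1 (0.33), BYSL (0.55), RRS1 (0.54), NOP2 (0.42), UMPS (0.41), CTPS1 (0.29), CDC25A (0.48), CDC6 (0.25) and EIF4E (0.32), and elsewhere OSGIN1 (0.70), SRXN1 (0.50) and SRSF7 (0.43). Groups of 3 libraries were not screened for single outlying samples.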

How the results depend on the processing

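Of 331 named or listed genes called in parental cells, 86 kept their call and direction under every setting tried, and 205 under every setting other than fits with 12 or 9 libraries. The number called depended on the libraries that estimate the spread: the count higher was 178 with all 12 MCF10A libraries and 871 with 9 (without knock-in DMSO), the count lower 124 and 905, and with effective-length offsets they were 901 and 824. The 12-library fit shared 302 called genes with the 6-library fit. Leaving out 1 library gave 1188 to 1643 genes higher and 1189 to 1630 lower. DESeq2 gave 1503 higher and 1794 lower. Transcripts called numbered 339 higher and 241 lower with a filter of 1 CPM, and 0 to 4 higher and 1 lower without 1 library. Genes with a changed share numbered 27 among transcripts of at least 10% of their gene and 248 to 359 without 1 library. The difference between lines was called higher for 52 and lower for 252 genes with a replicate block within each line, and 863 and 1011 without knock-in DMSO replicate 2. The median of PI3K components became 0.071 with effective-length offsets, and that of receptors and adaptors 0.097 with a filter of 1 CPM, 0.108 with those offsets and 0.079 to 0.109 without 1 library. With effective-length offsets 25 of all genes called changed sign, among them 3 of the named or listed genes, GSK3B, RPS6KA1 and WDR12, at -0.0020, 0.010 and 0.025. The cause was not tested. Depth was 120177015 pairs or more a library, and the chi-square per degree of freedom of 4.59 to 52.0 between replicates put the spread between libraries above counting error.

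Nothing in the labels pairs the replicate numbers, but same-numbered BYL719 and DMSO libraries had the highest correlations of their deviations in both gene sets used. Over all 20114 genes these were weak, at 0.036, 0.072 and 0.078, with pairs of different numbers at -0.061 to -0.0093. Over the 10278 genes with a mean log2 CPM above 3 they were 0.301, 0.125 and 0.308, with pairs of different numbers at most 0.013. The main results are without the block. With the replicate block 1767 genes were higher and 1956 lower, 3417 shared with the fit without it, and transcripts called were 0 in both directions. On the ERK list the block gave 14 genes lower instead of 7, with DUSP4, DUSP6, SPRY4 and IER3 among them, and MYC, JUN, EPHA2, FASN, SCAP and SESN1 passed the threshold as well.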

Other observations

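Lists not described above are given beside the 8.32% of all genes that rose and the 9.0% that fell. Of 14 circadian genes, 4 rose and 2 fell: the repressor NR1D2 averaged 43.7 ± 1.33 CPM with BYL719 and 34.2 ± 1.07 CPM with DMSO (log2 fold change 0.36, SE 0.0328, adjusted p = 1.23e-07), BHLHE41 was at 0.60 on the log2 scale, and PER3 and BHLHE40 were the 2 that fell. Of 14 integrin and laminin subunits, 6 rose and 0 fell, with a median log2 fold change of 0.075: ITGA2, of the collagen receptor, was at 0.20 and ITGAV at 0.12. Of 15 translation factors, 2 rose and 4 fell. PDCD4, an inhibitor of the helicase eIF4A, averaged 172 ± 1.15 CPM with BYL719 and 147 ± 4.94 CPM with DMSO (log2 fold change 0.23, SE 0.0274, adjusted p = 4.26e-06), while the cap-binding factor gene EIF4E and the eIF2 alpha gene EIF2S1 were at -0.12 and -0.16. Of 19 interferon-induced genes 2 rose and 0 fell, a share of rises near that of all genes, with a median of 0.027. ITGA2, ITGAV, EIF4E and EIF2S1 lost their calls with all 12 MCF10A libraries in the fit, ITGA2, ITGAV and EIF4E with 9 of them, without knock-in DMSO, and BHLHE41 with offsets for effective transcript length.

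Among noncoding genes averaging at least 1 CPM, the antisense gene NAV2-AS1 averaged 3.49 ± 0.487 CPM with BYL719 and 2.16 ± 0.0927 CPM with DMSO (log2 fold change 0.70, SE 0.0987, adjusted p = 3.16e-05), and OSER1-DT, next to an oxidative stress gene, averaged 4.94 ± 0.223 CPM with BYL719 and 3.38 ± 0.229 CPM with DMSO (log2 fold change 0.54, SE 0.0752, adjusted p = 2.30e-05). SNHG15, a host gene of a small nucleolar RNA, averaged 7.15 ± 0.188 CPM with BYL719 and 10.2 ± 1.12 CPM with DMSO (log2 fold change -0.51, SE 0.069, adjusted p = 4.70e-05), and AC006329.1 was at -0.53 on the log2 scale. For antisense genes, reads of the partner gene cannot be told apart without strand. NAV2-AS1 lost its call with all 12 MCF10A libraries in the fit.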
